A study of Mus musculus with 8 samples.

Results

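Genes of the circadian clock and its outputs were followed in injured mouse muscle, namely Ciart, Dbp, Per1, Per2, Per3, Arntl, Nr1d1, Nr1d2, Nfil3 and Cry1. They are 10 of the 19752 genes named by a row of the array whose annotation gives that symbol alone, and they were chosen by their log2 difference between arrays with titles numbered 1 and 2 and arrays numbered 3 and 4, seen in earlier results of these data. Levels are log2 intensities, on which 1 unit is a 2-fold difference, and where several rows named a gene the brightest was used. RNA came from the whole tibialis anterior of male C57BL/6 animals at day 8 of repair, after an injury made by holding a metal probe cooled in liquid nitrogen on the muscle for 8 seconds. One group was Foxp3-Cre/ST2 flox and the other Foxp3-Cre/ST2 WT, with 4 Affymetrix arrays of whole-muscle RNA in each, so both groups carried Foxp3-Cre. Foxp3 drives Cre in regulatory T cells, which are a small part of the cells of muscle, and ST2 is the receptor for interleukin-33; the transcript of the floxed gene is not analysed here. Age is 10 weeks per sample label and 2 months in the design text. Titles number the arrays 1 to 4 within each genotype, without saying what a number stands for or whether the RNA of each came from its own mouse; the spread behind every p-value below is that among arrays and could be technical. No hour of harvest is given in the sources used here.

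The mammalian clock is a loop of transcription and repression that runs in most cells, muscle fibres included. The proteins made from Arntl (also called Bmal1) and Clock bind E-box motifs and activate the Period, Cryptochrome, Nr1d and Dbp genes. Period and Cryptochrome proteins then repress that activity, and the nuclear receptors made from Nr1d1 and Nr1d2 repress Arntl, Nfil3 and other genes through a motif called the RORE. Genes driven through E-boxes and genes repressed by the Nr1d receptors therefore peak at opposite parts of the day.

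Median intensity lay between 185 and 189 on the 8 arrays. The skeletal muscle label was borne out by 10 of 10 fibre markers, such as the actin gene Acta1 and the creatine kinase gene Ckm, whose log2 levels lay between 11.70 and 13.87 on every array. Keratinocyte genes were high on WT array 4 alone: the mean of the 7 tested genes, centred on each gene, was 1.26 there and -0.19 to -0.13 on the other WT arrays. Macrophage genes were low on flox array 4, with a list mean of -0.44, against 0.04 to 0.39 on the other flox arrays.

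Apart from Nr1d1, the clock genes differed more by the number in the title than by genotype. Ciart, Dbp and the Period genes Per1, Per2 and Per3 were higher on arrays numbered 1 and 2 than on arrays numbered 3 and 4, and so was Nr1d2. Arntl, Nfil3 and Cry1 were lower on arrays 1 and 2. For these 9 of 10 genes the 4 arrays numbered 1 and 2 did not overlap with the 4 numbered 3 and 4, 6 of them higher and 3 lower; only Nr1d1 overlapped, and with median centring of the arrays Nfil3 did too. Over all 15007 genes tested, 10.7% did not overlap by number, 4.54% higher and 6.21% lower. Clock genes were chosen with this difference in view, so its size is a description without a test, and nothing is read from these shares. Differences by number and their standard errors come from a linear model with genotype as a covariate.

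**Figure D1:**
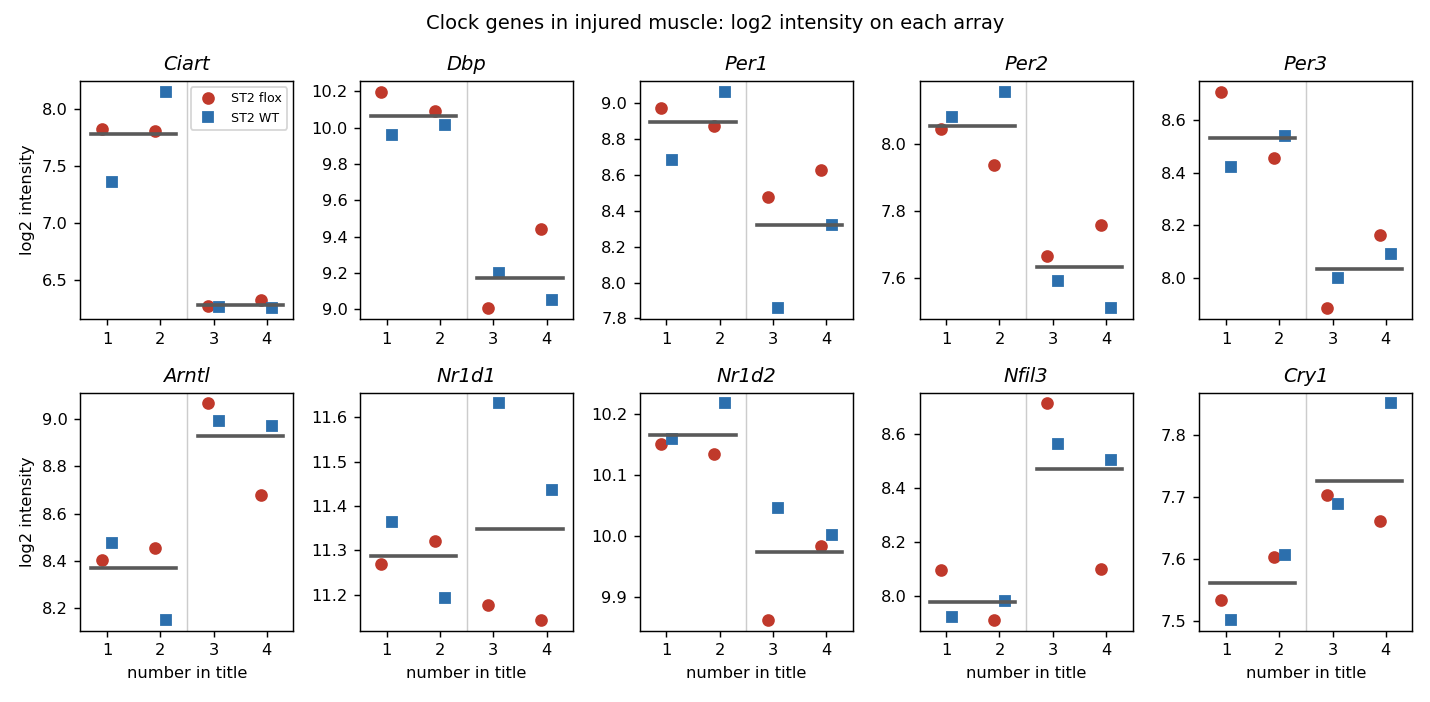
Log2 intensity of each clock gene (y axis, with a scale of its own in each panel) against the number in the array's title (x axis), for 4 ST2 flox arrays (circles) and 4 ST2 WT arrays (squares). Grey bars are means over the 4 arrays numbered 1 and 2 and the 4 numbered 3 and 4. Points on either side of the grey line are apart for 9 genes and overlap for Nr1d1.

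Ciart showed the widest difference. It encodes a repressor of the CLOCK and BMAL1 pair. Its log2 level was 7.82 and 7.80 on flox 1 and 2, 7.36 and 8.15 on WT 1 and 2, 6.28 and 6.33 on flox 3 and 4, and 6.27 and 6.26 on WT 3 and 4. All 4 arrays numbered 3 and 4 thus sat within a narrow band, while those numbered 1 and 2 spread more widely above it. The mean was 7.78 ± 0.32 (SD, n = 4) on arrays 1 and 2 and 6.28 ± 0.03 (SD, n = 4) on arrays 3 and 4, a log2 difference of 1.50 (SE 0.13) or 2.83-fold. By size this was number 4 of the 15007 genes tested. The lower mean lay under the filter on dim rows, a log2 value of 6.35, so that Ciart passed the filter only through arrays 1 and 2, and an array signal this dim understates a fold difference. A second row naming Ciart, dimmer on average, also separated the numbers, with a log2 difference of 0.98.

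Dbp encodes an activator that binds D-box motifs and is a classic output of the clock. Its log2 level was 10.20 and 10.09 on flox 1 and 2, 9.96 and 10.01 on WT 1 and 2, 9.01 and 9.44 on flox 3 and 4, and 9.20 and 9.05 on WT 3 and 4. Both genotypes had the same 2 high and 2 low arrays, and the highest of the low arrays was flox array 4. Means were 10.07 ± 0.10 and 9.17 ± 0.20 (SD, n = 4 each), a log2 difference of 0.89 (SE 0.09) or 1.86-fold.

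Period genes, which encode the repressors that close the loop with the Cryptochromes, were higher on the same arrays as Dbp. Per1 had log2 levels of 8.97 and 8.87 on flox 1 and 2, 8.68 and 9.06 on WT 1 and 2, 8.48 and 8.63 on flox 3 and 4, and 7.86 and 8.32 on WT 3 and 4. Its 2 sets of arrays came close, since WT array 1 (8.68) lay just above flox array 4 (8.63), and WT array 3 was lowest. The difference by number was 0.58 (SE 0.13), or 1.49-fold.

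Per2 lay at 8.04 and 7.94 on flox 1 and 2, 8.08 and 8.16 on WT 1 and 2, 7.67 and 7.76 on flox 3 and 4, and 7.59 and 7.51 on WT 3 and 4. The 2 WT pairs were farther apart than the 2 flox pairs, and the difference over both genotypes was 0.42 (SE 0.07), or 1.34-fold. Per3 lay at 8.71 and 8.46 on flox 1 and 2, 8.42 and 8.54 on WT 1 and 2, 7.88 and 8.16 on flox 3 and 4, and 8.00 and 8.09 on WT 3 and 4. Flox arrays held both its highest and its lowest value, and it differed by 0.50 (SE 0.08), or 1.41-fold.

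Promoter sequences are shown for the clock genes whose 250 bases before the RefSeq start held a motif through which the clock acts, since these genes fell on both sides of the difference by number. Windows of assembly GRCm38.p6 were found for 9 of the 10 genes, all but Per2. Letters searched on both strands were CACGTG for the E-box, CACGTT for the E′-box (a weaker form), TTATGTAA and TTACGTAA for the D-box, and TGACGTCA for the cyclic AMP response element; the RORE was searched by its consensus. The E-box and E′-box differ in 1 letter, so that no site can be both, and no match overlapped another in the windows printed. Sequences run 5′ to 3′ on the gene's strand, with the matches in capitals. The Ciart window is chr3:95882229-95882478 (minus strand), that of Per1, at the first of its 2 starts, chr11:69098699-69098948 (plus strand), that of Per3 chr4:151044666-151044915 (minus strand), that of Cry1 chr10:85185055-85185304 (minus strand) and that of Nr1d1 chr11:98775378-98775627 (minus strand).
Ciart: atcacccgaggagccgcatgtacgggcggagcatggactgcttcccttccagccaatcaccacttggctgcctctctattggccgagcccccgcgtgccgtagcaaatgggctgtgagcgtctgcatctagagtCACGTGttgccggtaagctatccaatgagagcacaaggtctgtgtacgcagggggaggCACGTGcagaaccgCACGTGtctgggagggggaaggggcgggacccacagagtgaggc
Per1: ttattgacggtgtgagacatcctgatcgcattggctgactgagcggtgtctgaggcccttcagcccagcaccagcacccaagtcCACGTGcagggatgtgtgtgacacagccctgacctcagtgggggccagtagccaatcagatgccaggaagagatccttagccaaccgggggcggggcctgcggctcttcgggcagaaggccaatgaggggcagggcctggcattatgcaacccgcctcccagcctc
Per3: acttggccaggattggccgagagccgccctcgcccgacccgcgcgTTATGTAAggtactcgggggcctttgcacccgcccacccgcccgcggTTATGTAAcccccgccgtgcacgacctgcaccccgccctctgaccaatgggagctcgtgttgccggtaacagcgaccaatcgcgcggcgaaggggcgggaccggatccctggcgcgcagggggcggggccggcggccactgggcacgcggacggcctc
Cry1: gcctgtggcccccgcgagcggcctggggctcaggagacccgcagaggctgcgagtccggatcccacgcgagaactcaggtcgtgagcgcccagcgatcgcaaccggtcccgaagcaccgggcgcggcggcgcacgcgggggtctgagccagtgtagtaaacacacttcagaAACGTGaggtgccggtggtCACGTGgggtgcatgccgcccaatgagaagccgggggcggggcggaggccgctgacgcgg
Nr1d1: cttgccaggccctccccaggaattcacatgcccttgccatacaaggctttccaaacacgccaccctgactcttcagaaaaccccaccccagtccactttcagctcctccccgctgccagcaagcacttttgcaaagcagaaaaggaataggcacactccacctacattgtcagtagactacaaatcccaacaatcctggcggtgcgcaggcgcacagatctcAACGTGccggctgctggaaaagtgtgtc

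E-box letters were present in a window of 3 of the 9 genes. Ciart, the gene with the widest difference, held 3 E-boxes, with their first bases 116, 58 and 44 bases before the start. Per1, at its first start, and Cry1 held 1 each. Per1 and Arntl had 2 starts each, and the windows of the second Per1 start and of the 2 Arntl starts held no match. Of 32851 promoter windows of the same length, 6.02% held at least 1 E-box, which is a share of windows and not of genes. The E′-box was in the windows of Cry1 and Nr1d1 and in 3.85% of all windows. Per3 held 2 D-boxes, a motif found in 0.931% of all windows. The cyclic AMP response element, in 1.55% of all windows, and the RORE, in 0.332%, were in no window of the 9 genes. Genes with an E-box in the window thus included Ciart and Per1, which were higher on arrays 1 and 2, and Cry1, which was lower. A match is a run of letters and not a measured binding site, and these windows leave out more distant elements.

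Arntl encodes BMAL1, the activator of the loop, and had the widest difference in the other direction. Its log2 level was 8.41 and 8.46 on flox 1 and 2, 8.48 and 8.15 on WT 1 and 2, 9.06 and 8.68 on flox 3 and 4, and 8.99 and 8.97 on WT 3 and 4. This was the reverse of Dbp, array set by array set, and flox array 4 again lay nearest to the other set. Means were 8.37 ± 0.15 on arrays 1 and 2 and 8.93 ± 0.17 on arrays 3 and 4 (SD, n = 4 each), so that Arntl was lower on arrays 1 and 2 with a log2 difference of -0.56 (SE 0.10), or 1.47-fold.

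Nfil3 encodes a repressor that competes with DBP for D-boxes. It lay at 8.10 and 7.91 on flox 1 and 2, 7.92 and 7.98 on WT 1 and 2, 8.71 and 8.10 on flox 3 and 4, and 8.56 and 8.50 on WT 3 and 4. Its separation by number was marginal, because flox arrays 1 and 4 both rounded to 8.10. The log2 difference was -0.49 (SE 0.12). Cry1, a Cryptochrome repressor whose peak comes later than that of the Period genes, lay at 7.53 and 7.60 on flox 1 and 2, 7.50 and 7.61 on WT 1 and 2, 7.70 and 7.66 on flox 3 and 4, and 7.69 and 7.85 on WT 3 and 4. Its arrays separated within a narrow span, 7.50 to 7.85, and the difference was -0.16 (SE 0.06).

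The 2 Nr1d genes, which encode the receptors also called REV-ERB alpha and beta, did not follow each other. Nr1d2 lay at 10.15 and 10.13 on flox 1 and 2, 10.16 and 10.22 on WT 1 and 2, 9.86 and 9.98 on flox 3 and 4, and 10.05 and 10.00 on WT 3 and 4, with a difference of 0.19 (SE 0.05). It therefore sat on the side of Dbp and the Period genes, with a much smaller step. Nr1d1 lay at 11.27 and 11.32 on flox 1 and 2, 11.36 and 11.19 on WT 1 and 2, 11.18 and 11.14 on flox 3 and 4, and 11.63 and 11.44 on WT 3 and 4. Its highest arrays were WT 3 and 4 and its lowest flox 3 and 4, so that the numbers overlapped and the difference over both genotypes was -0.06 (SE 0.09), the only one of the 10 smaller than its standard error; it was 0.01 without WT array 2 and 0.02 without WT array 3. By size it was number 9118 of the 15007 genes.

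**Figure D2:**
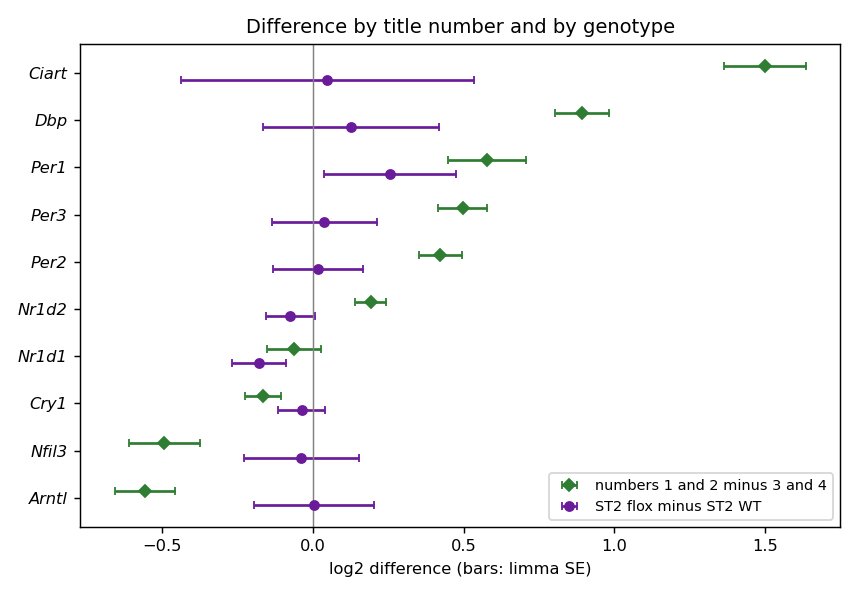
Log2 differences (x axis) of the 10 clock genes (rows) between arrays numbered 1 and 2 and arrays numbered 3 and 4 (diamonds) and between ST2 flox and ST2 WT (circles), with limma's standard error as bars and 4 arrays on each side. Differences by number run from 1.50 for Ciart to -0.56 for Arntl, and those by genotype from 0.26 for Per1 to -0.18 for Nr1d1.

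The genotype comparison asked whether loss of ST2 in regulatory T cells went with a change of the clock in regenerating muscle. The choice of genes did not use the genotype, but it was not neutral for this fit. A wide difference by number adds to the spread within each genotype, which makes a call less likely. No clock gene passed the threshold. The flox and WT arrays overlapped for all 10, but for the 9 that separated by number this overlap was fixed. Each genotype held arrays from both sides of the number, so the genotypes could not lie apart. In limma 0 of 10 had an adjusted p under 0.05 and 0 of 10 an unadjusted p under 0.05 (smallest adjusted p 0.912), where 0% and 3.79% of all 15007 genes did. Groups that did not overlap were seen for 1.97% of all genes. For genes chosen by number these shares are not a like comparison, and nothing is read from them. A higher mean in flox was seen for 6 genes and a lower mean for 4. The median difference was 0.01 log2 for the clock genes and -0.002 for all genes, and the median size was 0.04 for the clock genes and 0.06 for all genes.

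Per1 had the largest genotype difference, with a mean of 8.74 ± 0.23 in flox and 8.48 ± 0.51 in WT (SD, n = 4 each). That was a log2 difference of 0.26 (SE 0.22, 95% confidence interval -0.23 to 0.74, limma adjusted p 0.912), and it was 0.05 without WT array 3, the lowest Per1 array, and 0.45 without WT array 2, the highest. Nr1d1 came next, at 11.23 ± 0.08 in flox and 11.41 ± 0.18 in WT, a difference of -0.18 (SE 0.09, interval -0.38 to 0.02, limma adjusted p 0.912) that was -0.10 without WT array 3. Dbp differed by 0.13 (SE 0.29, interval -0.52 to 0.77), Ciart by 0.05 (SE 0.49, interval -1.03 to 1.13) and Nr1d2 by -0.07 (SE 0.08, interval -0.25 to 0.10). The second, dimmer row naming Ciart differed by 0.31, and the mean of the Ciart rows by 0.18. Per3 differed by 0.04 (SE 0.17), Per2 by 0.02 (SE 0.15), Arntl by 0.004 (SE 0.20), Nfil3 by -0.04 (SE 0.19) and Cry1 by -0.04 (SE 0.08). Leaving out 1 array turned the sign of each of these last 5 differences and of those of Dbp and Ciart, and quantile normalization turned those of Per2 and Arntl. All 10 macrophage markers had a higher mean in flox, by a median of 0.18 log2, as had 7330 of all 15007 genes by any amount. Their summed intensities were 10820 to 17731 in flox and 12138 to 15031 in WT. The excess lay on flox arrays 1 and 2, with centred list means of 0.38 and 0.39. Flox arrays 3 and 4 had 0.04 and -0.44, and the WT arrays -0.15 to 0.04. All 6 T cell markers had a higher mean in flox (median 0.24 log2; sums 1244 to 1804 and 1173 to 1277), and all 7 keratinocyte markers a lower mean (sums 810 to 1059 and 899 to 2621). No marker passed by genotype in limma (1 macrophage and 3 T cell markers had an unadjusted p under 0.05), and their part in the clock gene values was not tested.

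For the 9 genes that separated by number, high and low arrays within each genotype widened these standard errors. With the number (1 and 2, or 3 and 4) as a covariate the differences were the same. The standard error was then 0.13 in place of 0.49 for Ciart, 0.09 in place of 0.29 for Dbp and 0.10 in place of 0.20 for Arntl. For Nr1d1 it was 0.09 with and without the covariate. Over all genes the median standard error was 0.0673 in place of 0.0750. The clock genes were chosen with the difference by number in view. The larger drop of those that separated by number follows from that choice and is not a result. The intervals given next carry the same limit. The 95% interval of the genotype difference was then -0.25 to 0.35 for Ciart, -0.07 to 0.33 for Dbp and -0.22 to 0.23 for Arntl, and the smallest limma adjusted p of a clock gene was 0.753. Genotype differences larger in size than the upper end for Ciart (0.35 log2) lay outside the interval for Ciart, Dbp, Per2, Per3, Arntl, Nr1d2, Nfil3 and Cry1. The intervals of Per1 (-0.03 to 0.55) and Nr1d1 (-0.38 to 0.02) reached beyond that size. For Ciart the interval is that of its brightest row only. Its second row had a genotype difference of 0.31, and no interval was computed for it.

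**Figure D3:**
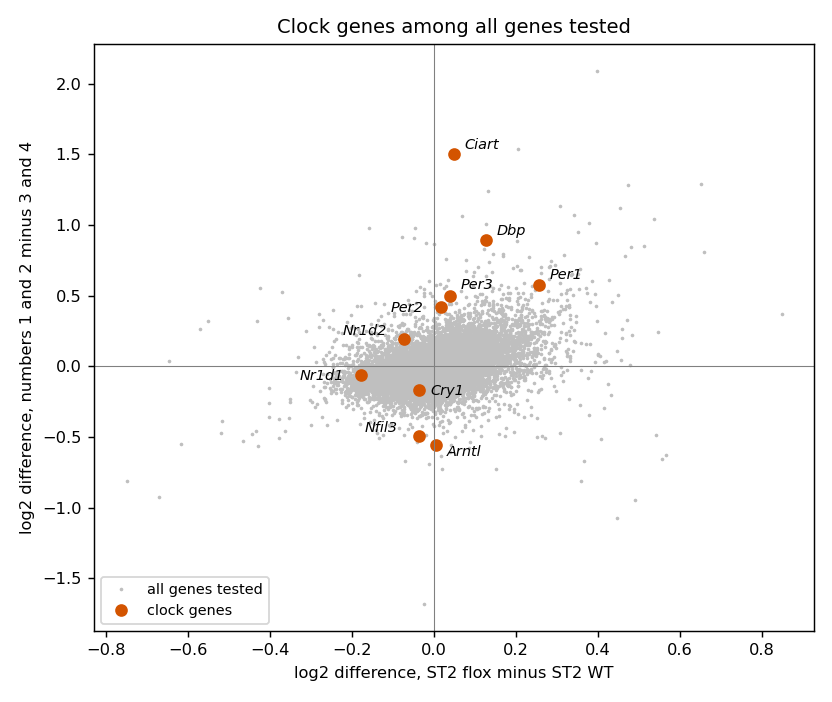
Log2 difference between arrays numbered 1 and 2 and arrays numbered 3 and 4 (y axis) against the log2 difference between ST2 flox and ST2 WT (x axis), for all 15007 genes tested (grey) and the 10 clock genes (orange). Ciart, at 1.50, lies near the top of the cloud, and all 10 clock genes lie between -0.18 and 0.26 along the genotype axis.

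The difference by number was set out within each genotype. Ciart differed by 1.51 in flox and 1.49 in WT, and Dbp by 0.92 and 0.86, so that for both the genotypes were nearly alike. Arntl differed by -0.44 in flox and -0.67 in WT, and Per3 by 0.56 and 0.43. Per2 differed by 0.28 in flox and 0.57 in WT, and Per1 by 0.37 and 0.78. Nr1d1 alone had opposite signs, 0.14 in flox and -0.26 in WT. Its genotype difference was accordingly 0.02 among arrays 1 and 2 and -0.37 among arrays 3 and 4, while that of Per1 was 0.05 and 0.46. Tested as an interaction in limma, 0 of 10 clock genes passed an adjusted p of 0.05, as did 0% of all genes. At an unadjusted p under 0.05 there were 2 of 10, against 15.3% of all genes: Nr1d1 (interaction 0.39, SE 0.13, adjusted p 0.284) and Per2 (-0.29, SE 0.11, adjusted p 0.295). Each genotype then has 2 arrays on each side, and a difference between genotypes was not shown for any clock gene.

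**Figure D4:**
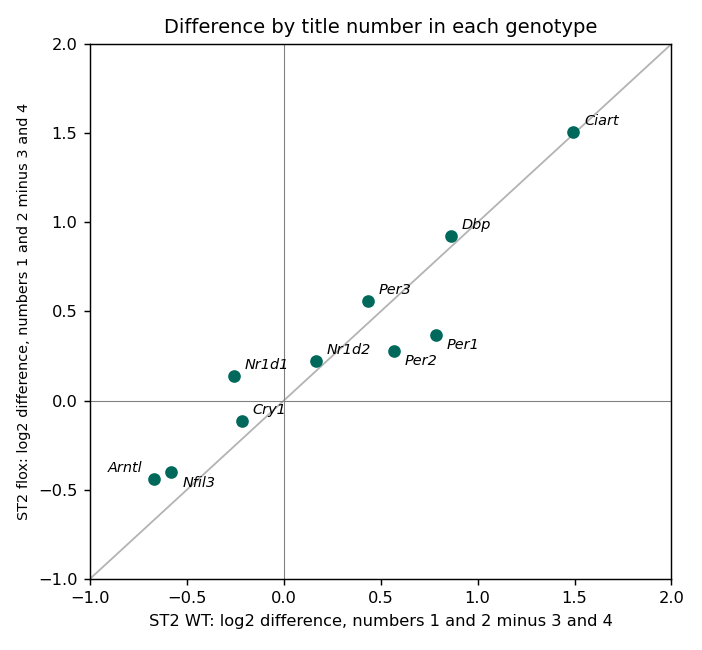
Log2 difference between arrays numbered 1 and 2 and arrays numbered 3 and 4 in ST2 flox (y axis) against the same difference in ST2 WT (x axis), each from 2 arrays against 2, for the 10 clock genes. The line marks equal differences; Ciart (1.51 and 1.49) and Dbp (0.92 and 0.86) lie close to it, and Nr1d1 is the gene with opposite signs.

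Other genes of the loop were taken from a list of partners and regulators, of which 15 were tested; Fbxl21 fell below the filter. By genotype 0 of 15 passed in limma (0 at an unadjusted p under 0.05), and Rora, which encodes an activator at the RORE, was the 1 gene of 15 whose groups did not overlap (1.97% of all genes did not), with a lower mean in flox and a difference of -0.11 (SE 0.05, limma adjusted p 0.912). By number 2 genes were higher and 1 lower on arrays 1 and 2 without overlap, where 4.54% and 6.21% of all genes were. In limma 1 of 15, Bhlhe40, passed by number, against 0.373% of all genes in either direction. The list was drawn up with earlier results of these data known, so these shares are not a like comparison. Nothing is read from them. Bhlhe40 encodes a repressor that competes for E-boxes. It lay between 9.79 and 9.94 on the 4 arrays numbered 1 and 2 and between 9.21 and 9.52 on the other 4, a difference of 0.49 (SE 0.08). Cry2, the second Cryptochrome, lay between 8.63 and 8.85 on arrays 1 and 2 and between 8.31 and 8.49 on arrays 3 and 4, a difference of 0.32 (SE 0.07) opposite in sign to that of Cry1. Clock, the partner of Arntl, lay between 9.40 and 9.49 on arrays 1 and 2 and between 9.54 and 9.68 on arrays 3 and 4, with a difference of -0.14 (SE 0.05) in the direction of Arntl. The other 12 genes of the list overlapped, among them the kinases and ubiquitin ligases that set the stability of the Period and Cryptochrome proteins. The median size over the 15 genes was 0.05 log2, against 0.08 for all genes.

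A list of 9 clock outputs was tested whole, and 0 of 9 passed by genotype in limma (0 at an unadjusted p under 0.05). By number 4 were higher and 1 lower on arrays 1 and 2 without overlap, against 4.54% and 6.21% of all genes. In limma 0 of 9 passed an adjusted p of 0.05 by number, as 0.373% of all genes did. This list, too, was drawn up with earlier results of these data known, and nothing is read from these shares. Tspan4, which encodes a tetraspanin, lay between 9.06 and 9.49 on arrays 1 and 2 and between 8.81 and 8.93 on arrays 3 and 4, a difference of 0.44 (SE 0.08). Usp2, which encodes a deubiquitinase, differed by 0.27 (SE 0.07), Hlf, a relative of Dbp, by 0.22 (SE 0.06), and Wee1, which encodes a kinase that holds back mitosis, by 0.15 (SE 0.06). Myod1, which encodes the factor that commits cells to muscle and is also a target of the clock in muscle, was the 1 lower gene: it lay between 9.17 and 9.36 on arrays 1 and 2 and between 9.42 and 9.83 on arrays 3 and 4, a difference of -0.30 (SE 0.09). The median over the 9 genes was 0.22 log2 and that over all genes -0.02. Rora, Clock, Hlf, Usp2 and Wee1 are named because their arrays did not overlap, and were chosen after their values were seen.

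**Figure D5:**
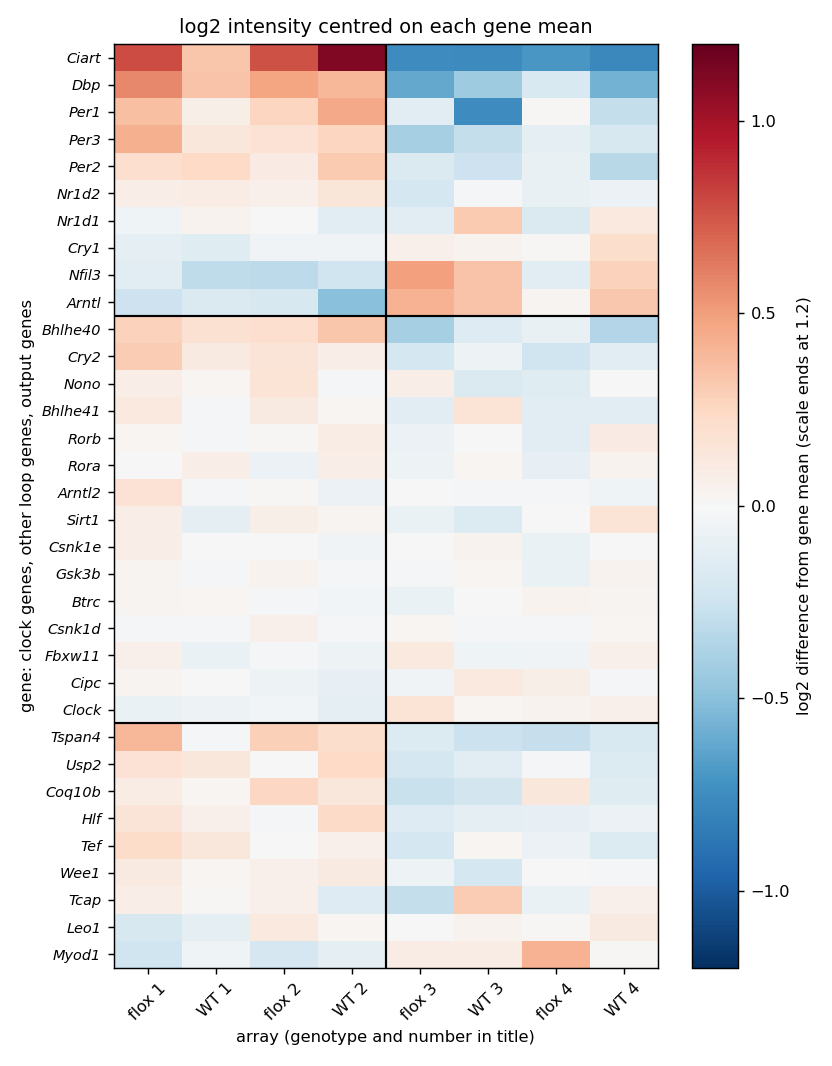
Log2 intensity centred on each gene's mean (colour, red above and blue below) on the 8 arrays (columns, ordered by the number in the title), for the 10 clock genes, 15 other loop genes and 9 output genes (rows, divided by lines). Ciart, Dbp, Per2 and Per3 are red, in places pale, on arrays 1 and 2 and blue, in places pale, on arrays 3 and 4. Per1 is likewise, except for near-white values on flox array 4 and WT array 1. Arntl and Nfil3 are the reverse except on flox array 4, which is near white for Arntl and pale blue for Nfil3.

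Genes most like Dbp and Arntl were sought among 2410 genes outside the 10 with a range of at least 0.5 log2, by the mean absolute difference of centred log2 levels over the 8 arrays. For Dbp these were the long non-coding RNA Dubr (mean absolute difference 0.14), the calcium-binding protein gene S100a4 (0.17), the matrix protein gene Abi3bp (0.18), the metallothionein gene Mt2 (0.18) and Acod1, the itaconate-making enzyme of activated macrophages (0.18). Dubr lay between 8.95 and 9.30 on arrays 1 and 2 and between 7.85 and 8.57 on arrays 3 and 4, a difference of 1.07 (SE 0.12), wider than that of Dbp. The clock gene nearest to Dbp was Per3 (0.20). For Arntl they were Klhl30 (0.08), the natriuretic peptide clearance receptor gene Npr3 (0.08), Ppp1r27 (0.09), Rflnb (0.09) and the transporter gene Slc47a1 (0.09). Ppp1r27 lay between 8.61 and 9.01 on arrays 1 and 2 and between 9.31 and 9.81 on arrays 3 and 4, a difference of -0.73 (SE 0.12). The clock gene nearest to Arntl was Nfil3 (0.11). The genes outside the 10 were picked for levels like those of Dbp or Arntl. Their differences by number follow from that choice and are not a result.

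Cell type markers moved by number as well, and in whole muscle fewer cells of a type and less RNA per cell cannot be told apart. All 10 macrophage markers had a higher mean on arrays 1 and 2, with a median difference of 0.32 log2; their summed intensity ranged from 13033 to 17731 on arrays 1 and 2 and from 10820 to 14190 on arrays 3 and 4, and 1 of 10, the complement gene C1qb, did not overlap, as 4.54% of all genes did not in that direction. Their centred list mean was 0.38, 0.39, -0.13 and 0.04 on flox 1, flox 2, WT 1 and WT 2, and 0.04, -0.44, -0.14 and -0.15 on flox 3, flox 4, WT 3 and WT 4, so that these sets overlapped. Fibre markers were lower on arrays 1 and 2 for 9 of 10 (median difference -0.08 log2, 5 without overlap, where 6.21% of all genes lay lower without overlap), and their summed intensity ranged from 101312 to 104969 there and from 107650 to 110343 on arrays 3 and 4. Fibroblast markers summed to 21603 to 26349 on arrays 1 and 2 and 19110 to 24721 on arrays 3 and 4, with 6 of 7 higher. T cell markers summed to 1239 to 1804 and 1173 to 1441 (5 of 6 higher), and adipocyte markers to 2645 to 3319 and 2722 to 3017 (2 of 5 higher). All 7 keratinocyte markers were lower on arrays 1 and 2, and their sums ranged from 810 to 958 there and from 896 to 2621 on arrays 3 and 4, the top value being WT array 4. Without WT array 4 the difference by number was 1.50 for Ciart, 0.87 for Dbp and -0.54 for Arntl. Some markers were dim on some arrays, under the log2 6.35 of the filter on dim rows. The keratinocyte gene Lor lay at 6.20 to 6.26 on flox 1 to 3, and the T cell gene Cd3g at 6.27 on flox 4 and 6.32 on WT 1. Marker lists were drawn up with earlier results of these data known, so the shares of all genes are not a like comparison by number. The part of the other cell types in the clock gene differences was not tested.

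Genes that respond to hormones, feeding, temperature and handling were listed because they too can move clock genes. Over all genes 10.7% separated by number, without overlap between the arrays. Of 10 glucocorticoid-responsive genes 0 separated; the widest were Mt2 (0.57, SE 0.15) and Zbtb16, a transcription factor gene (-0.41, SE 0.10). Of 9 fasting-responsive genes 1 separated, the ubiquitin ligase gene Trim63, and the widest were Cpt1a, of mitochondrial fatty acid import (0.42, SE 0.09), and Ucp3, the muscle uncoupling protein (-0.33, SE 0.14). Of 9 temperature-responsive genes 2 separated, Rbm3 and the heat shock gene Hsph1; the widest were the small heat shock protein gene Hspb1 (-0.30, SE 0.10) and the cold-inducible Rbm3 (0.25, SE 0.09). Of 12 immediate early genes 0 separated, with Atf3 and Egr1 widest (-0.24 each, SE 0.08 and 0.10). No gene of these 4 lists passed by number or by genotype in limma, where 0.373% and 0% of all genes did. These lists were drawn up with earlier results of these data known, so the shares by number are not a like comparison. By genotype 1 had an unadjusted limma p under 0.05 (Klf15, at -0.19, SE 0.07), against 3.79% of all genes. The part of these lists in the clock gene differences was not tested.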

How the data were processed

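RNA of whole muscle was measured on 8 Affymetrix Mouse Gene 1.0 ST arrays, 4 of each genotype. The authors' deposited values are intensities on a linear scale from RMA, run with Affymetrix Power Tools, per the submitters' processing notes; RMA subtracts background and equalises the arrays, which shrinks differences of dim genes. From the deposited intensities log2 values were taken with no pseudocount. Of 24922 rows, 21425 carried 1 gene symbol, 1399 several and 2098 none; rows with 1 symbol were used, the brightest per gene, and genes under the 25th percentile of row means (log2 6.35) were left out, leaving 15007. The number of arrays limits the precision.

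Models were fitted to all genes with limma 3.58.1 in R 4.3.3 (genotype; number with genotype as covariate; their interaction), with Benjamini-Hochberg adjustment and a threshold of 0.05, and were tested on simulated data. The clock genes and the gene lists were chosen with earlier results of these data known. Named were the clock genes, genes of the loop and output lists with a number difference of at least 0.3 log2 (otherwise the 3 widest), the 2 widest of each hormone, feeding, temperature and immediate early list, and the 5 most like Dbp and Arntl. Alternatives were quantile normalization, median centring, no filter, the 50th percentile, the mean of a gene's rows, a pseudocount of 16, a replicate block, the number as covariate and leaving out each array.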

Additional observations from a re-analysis of the deposited data

Results flagged for a closer look

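Of 96 groups of 4 arrays looked at, 3 held an array far from the other 3, and none of the 3 was a clock gene. Chance flags about 1 group in 20, but for genes chosen by number this rate is not a like comparison. For the 9 clock genes that separated by number, each genotype had 2 arrays on each side. That split works against a flag for a single array. Nothing is read from the lack of flagged clock genes. The keratinocyte list mean was 1.26 on WT array 4, against -0.190 to -0.127 on the other WT arrays. The macrophage list mean was 0.0441 on WT array 2, against -0.146 to -0.130 on the others. The adipocyte list mean was -0.148 on WT array 1, against 0.0588 to 0.101 on the others. All are centred log2 values.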

How the results depend on the processing

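By genotype 0 clock genes passed the adjusted threshold under every alternative run, left-out arrays included. By number 9 clock genes had arrays that did not overlap, 8 with median centring (Nfil3 overlapped) and 8 with rows above the 50th percentile (Ciart was not tested); leaving out an array cannot end a separation. No interaction passed; the smallest adjusted p was 0.0712, without flox array 3. With quantile normalization the genotype difference turned to -0.00588 for Per2 and to -0.0177 for Arntl, and 1 clock gene, Nr1d1, had an unadjusted p under 0.05 (limma adjusted p 0.940). Leaving out 1 array gave genotype differences of -0.21 to 0.43 for Ciart, -0.0444 to 0.35 for Dbp, 0.05 to 0.45 for Per1, -0.0915 to 0.12 for Per2, -0.0962 to 0.18 for Per3, -0.16 to 0.12 for Arntl, -0.25 to -0.10 for Nr1d1, -0.11 to -0.02 for Nr1d2, -0.21 to 0.0692 for Nfil3 and -0.0895 to 0.0268 for Cry1, with 0 to 2 clock genes at an unadjusted p under 0.05 (Per1 and Nr1d1, without WT array 2). By number, the difference of Nr1d1 ranged from -0.11 to 0.0174, and those of the other 9 kept their sign. With the mean of its rows Ciart differed by 1.24 by number and by 0.18 by genotype. The cause of these turns was not tested.

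With a replicate block 0 clock genes passed by genotype (smallest limma adjusted p 0.871). Same-numbered arrays of the 2 genotypes gave correlations of their deviations of -0.00174, 0.352, 0.253 and 0.0422 for numbers 1 to 4, and 3 of 8 arrays correlated best with their own number. Not every number reached a correlation of 0.1, so the block was not used for the values reported; what the numbers stand for is not known here.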
